A study of Bos taurus with 9 samples.

Results

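Genes for integrins, laminins, cadherins, protocadherins, syndecans and 4 other adhesion receptors were followed in cultured bovine nucleus pulposus cells under salt. Members are picked by gene symbol, a rule written with earlier results of these data known, and the set holds 47 of the 9155 genes that had a probe set annotated to 1 gene only. These 47 genes have 77 such probe sets, and each gene is represented by the probe set with the highest mean over the 9 arrays. The name rule also takes in 4 genes that are not integrin subunits, namely ITGB1BP1, ITGB1BP2, ITGB3BP and ITGBL1. By role, the set has 12 integrin alpha chains, 7 integrin beta chains, 5 laminin chains, 10 cadherins, 3 protocadherins, 2 syndecans, and CD44, ICAM1, NCAM1 and VCAM1.

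The cells came from the nucleus pulposus, the soft core of the disc, of caudal discs of young calves, and were grown in DMEM with fetal bovine serum. They were left untreated (control) or kept in salt at 500 mOsm/kg for 5 h or 24 h, with 3 arrays in each of the 3 groups. The arrays are labelled as biological replicates with no animal named, and p-values therefore measure the spread between these cultures only. The control has no stated time and serves both salt groups, so effects of salt and of time in culture cannot be told apart.

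Integrins are pairs of an alpha and a beta chain that span the membrane, bind matrix proteins outside the cell and link to actin through adaptors inside it. Laminins are assembled from an alpha, a beta and a gamma chain and are ligands for several integrins, while cadherins join neighbouring cells and syndecans carry heparan sulphate chains that bind matrix and growth factors. In the disc, contacts of this kind hold cells in a matrix rich in collagen and aggrecan, whose salt content and water content change with load.

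The arrays gave linear probe-set intensities with medians between 67.1 and 84.5. Changes are differences between group means of log2(intensity + 16), which understates changes of dim probe sets. Intensities of different probe sets are not compared as transcript levels. Calls rest on a limma fit to all 9 arrays and 18012 probe sets, with a p-value adjusted by Benjamini and Hochberg's method below 0.05. Of the 47 members, 39 passed the filter on low values and were tested. The remaining 8 (CDH8, CDH23, ITGA2, ITGA2B, ITGA4, ITGAM, NCAM1 and PCDH1) lay below it, and no test is given for them. The 3 arrays numbered 3, 1 from each group, stood apart from the other 6 on a component holding 47.7% of the variance. Arrays of the same number deviated together (correlations of 0.564 to 0.896), so values with the number as a block are given where they change a call.

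The labelled cell type was checked against marker genes. Aggrecan (ACAN) had intensities of 497 to 4026 and COL2A1 29.1 to 330. On the same cartilage-type list, COL11A1 had 2350 to 4811 and HAPLN1 445 to 1589. COL11A2 reached at most 17.1, CHAD 24.5, CNMD 31.0, COL9A1 48.0, COMP 76.0 and MATN1 92.4. Of the 4 cytokeratins on the nucleus pulposus list, KRT19 had 2.1 to 13.6, KRT8 12 to 23.2 and KRT18 11.3 to 31.8, near or below the filter at an intensity of 17.1, and KRT15 had 46.0 to 120, above it. Other markers on that list were bright, with HIF1A at 3190 to 5884, BNIP3 at 820 to 3524 and SLC2A1 at 554 to 1329. The rest were dim, and GPC3 reached at most 15.6, SNAP25 13.9 and CA3 9.5. On a list of annulus and tendon-type markers, COL3A1 had 8970 to 13895, COL1A1 1070 to 4833 and COL12A1 852 to 3949. TNXB had 68.3 to 459 and THY1 114 to 245, and TNMD reached at most 6.5. In RNA of whole cultures, fewer cells of a type and less RNA per cell cannot be told apart.

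After 24 h in salt, 3 integrin chain genes rose and 1 integrin regulator fell. ITGA10, the alpha chain of a collagen receptor of cartilage-type cells, rose most. ITGB3 and ITGAV, whose products pair with each other to bind matrix proteins such as vitronectin and fibronectin, rose as well. ITGB1BP1, whose product binds the tail of the beta chain ITGB1 and holds the integrin inactive, fell. These 4 calls were made among 47 members (39 tested), against 8.61% of all tested probe sets called in this comparison, 4.28% upward and 4.32% downward. The median change of the 47 members was -0.00057, and that of all 24016 probe sets outside the array controls was 0.017.

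ITGA10 had intensities of 135, 108 and 176 in control, 124, 80.7 and 153 at 5 h, and 1055, 518 and 1024 at 24 h. All 24 h arrays lay above all others, and control and 5 h overlapped. The change from control to 24 h was 2.46 ± 0.33 as a log2 difference with its SE (n = 3 arrays in each group, limma adjusted p = 0.0059), or 5.49-fold. It was higher in 3 of 3 same-numbered pairs, by 2.82, 2.10 and 2.44. A dimmer second probe set gave 47, 54.5 and 37.1 in control and 265, 118 and 47 at 24 h, a change of 1.11 ± 0.46 that was not called (limma adjusted p = 0.18, and 0.016 with the replicate block). On that probe set the differences were 2.16, 0.93 and 0.25 in pairs 1, 2 and 3, smallest on the arrays numbered 3.

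ITGB3 had the smallest spread of the integrin chains that rose. Its intensities were 1009, 844 and 1066 in control, 1101, 950 and 1262 at 5 h, and 3236, 3536 and 3399 at 24 h. The 24 h arrays lay above all others, with a change from control of 1.79 ± 0.14 (limma adjusted p = 0.0014), or 3.46-fold. Of its other 3 probe sets, one gave 54.5, 45.3 and 11.1 in control and 177, 260 and 45.5 at 24 h, and another gave 49.8, 39.9 and 4.5 and then 210, 256 and 19.3. Both were higher at 24 h in 3 of 3 pairs, with changes of 1.60 ± 0.58 and 1.62 ± 0.78 that were not called without the block (limma adjusted p = 0.13 and 0.26) and were called with it (0.00070 and 0.0025). The fourth, with means of 8.43 in control and 5.4 at 24 h, lay below the filter and was not tested.

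ITGAV had intensities of 1938, 1159 and 1496 in control, 1956, 1314 and 1683 at 5 h, and 2955, 2296 and 2810 at 24 h. Again the 24 h arrays lay above all others, and the change from control was 0.83 ± 0.21 (limma adjusted p = 0.0478), or 1.78-fold. A second probe set changed alike, by 0.89 ± 0.28 (limma adjusted p = 0.091, and 0.00026 with the replicate block). The ITGAV call lay at the threshold. It ended in 7 of 9 refits that left out 1 array, all except those without control replicate 1 (adjusted p = 0.029) or 5 h replicate 2 (0.0446), and the highest adjusted p was 0.16, without 24 h replicate 1. With the replicate block its adjusted p was 0.00020.

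ITGB1BP1 had intensities of 842, 964 and 925 in control and 825, 861 and 888 at 5 h. At 24 h they were 556, 544 and 586, below every other array. The gene fell by 0.68 on the log2 scale (SE 0.12, limma adjusted p = 0.014) and was lower in 3 of 3 pairs. The call ended without control replicate 2 (adjusted p = 0.064), control replicate 3 (0.054) or 24 h replicate 1 (0.062). The number of members called was then 2 in each of these 3 refits, ITGA10 and ITGB3, both of which were called in 9 of 9 refits.

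**Figure D1:**
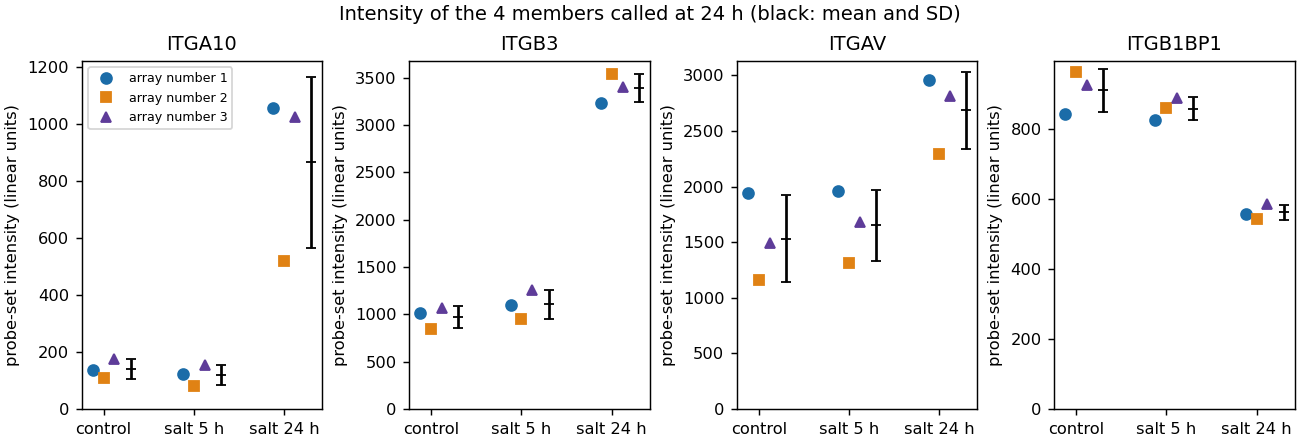
Linear probe-set intensity of ITGA10, ITGB3, ITGAV and ITGB1BP1 on each array, by group, with the array number as colour and symbol and the group mean and SD in black. For each gene the 3 arrays of salt 24 h lie on 1 side of all control and 5 h arrays, and ITGA10 ranges from 518 to 1055 at 24 h.

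At 5 h none of the 39 tested members was called in the limma fit, with 0 also at an unadjusted p under 0.05 and 0 with the replicate block, against 0.483% of all tested probe sets called without the block and 5.86% with it (2.45% upward and 3.41% downward). The median change of the 47 members was -0.029, and that of all 24016 probe sets was -0.023. Changes ran from -0.50 for ICAM1 to 0.53 for ITGB1BP2, a muscle-type partner of ITGB1. For the genes called at 24 h, the 95% intervals of the change at 5 h were -0.96 to 0.52 for ITGA10, -0.14 to 0.50 for ITGB3, -0.37 to 0.61 for ITGAV and -0.35 to 0.19 for ITGB1BP1. Of the 47 members, 1 had all 5 h arrays above all control arrays (PCDH10) and 1 had them below (PCDH12), against 4.04% and 6.60% of all tested probe sets.

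The late timing was tested directly as 24 h minus 5 h. ITGA10 was higher at 24 h by 2.67 ± 0.33 (limma adjusted p = 0.0033) and ITGB3 by 1.61 ± 0.14 (0.0015), while ITGB1BP1 fell by 0.60 (SE 0.12, adjusted p = 0.014). These 3 members were called, against 14.2% of all tested probe sets, 8.01% upward and 6.15% downward. ITGAV was higher by 0.71 ± 0.21 with a limma adjusted p = 0.060, and 0.00029 with the block. Leaving out 5 h replicate 1 or 24 h replicate 1 ended the call of ITGB1BP1 (highest adjusted p = 0.058). Leaving out control replicate 1 raised the count from 3 to 5 by adding ITGAV (0.043) and ICAM1 (0.0454). With each array centred on its median, changes in this comparison moved down by about as much as the median of all tested probe sets, from 0.057 to -0.060, and the share of calls that were higher went from 56.6% to 37.9%. The 3 calls stayed with that scaling, and SDC3 was called too, at -0.80 (adjusted p = 0.035).

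**Figure D2:**
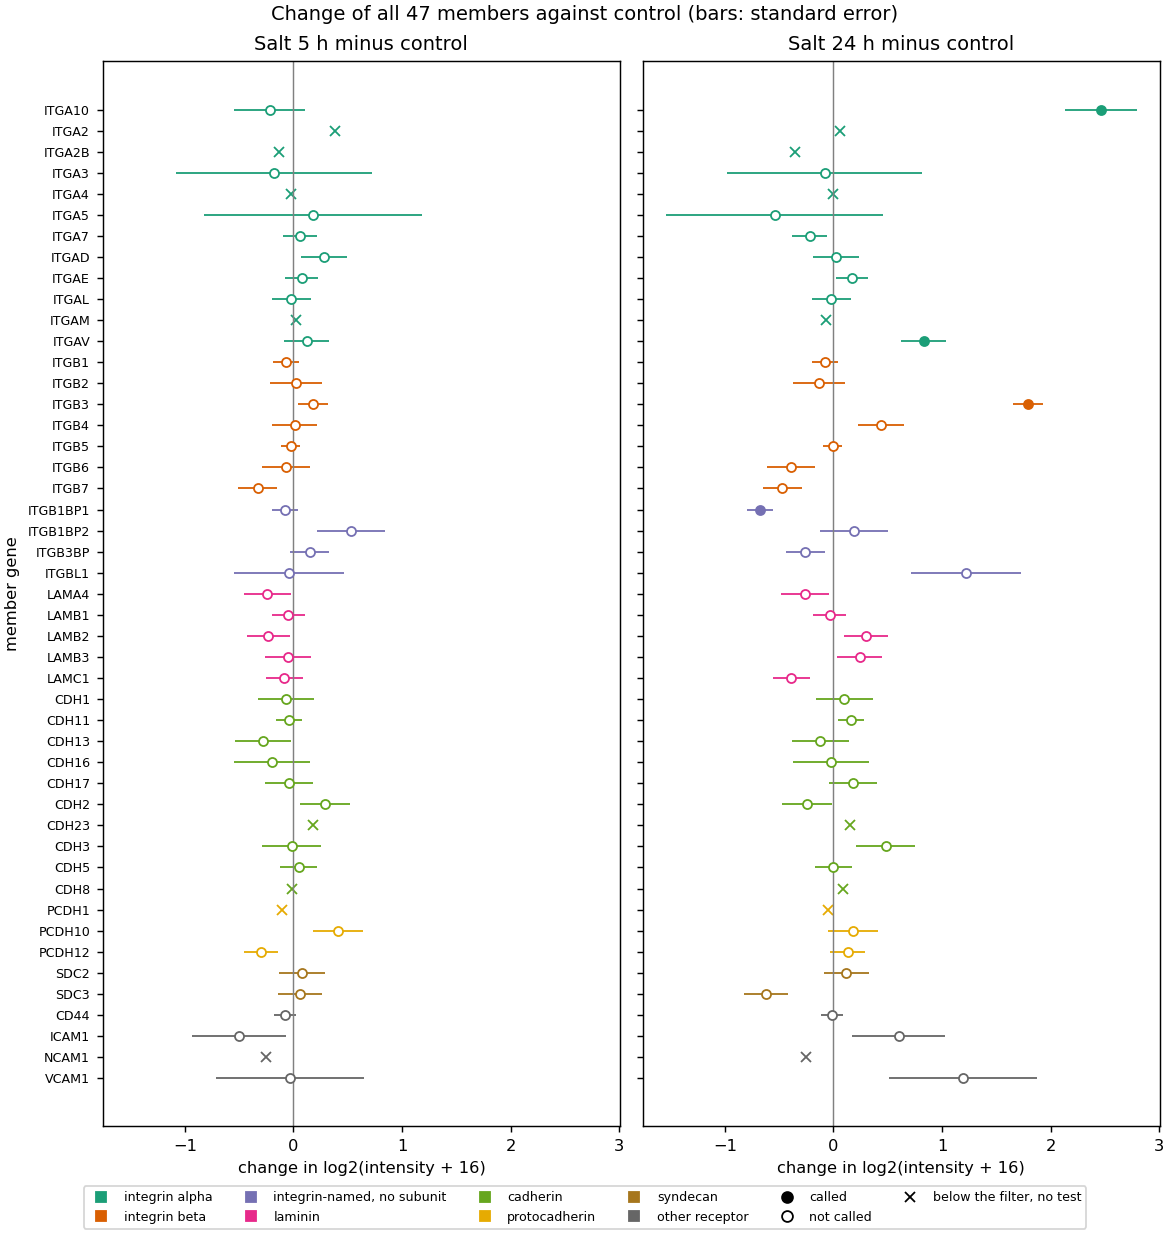
Change in log2(intensity + 16) of all 47 members against control at 5 h (left) and 24 h (right), with standard errors, coloured by role. Filled points were called, open points were tested and not called, and crosses lay below the filter. No point is filled at 5 h, and at 24 h the filled points are ITGA10 at 2.46, ITGB3 at 1.79, ITGAV at 0.83 and ITGB1BP1 at -0.68.

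None of the other 6 integrin beta chains was called in the fit without the block. ITGB1, the common partner of most matrix-binding alpha chains, had intensities of 9685, 8995 and 9354 in control and 7921, 9387 and 9292 at 24 h. Its change at 24 h was -0.079 with a 95% interval of -0.35 to 0.19. ITGB5, a further partner of ITGAV, had 11009, 12177 and 12495 in control and 11151, 11846 and 12461 at 24 h, and a change of -0.0084 (95% interval -0.20 to 0.19). Both probe sets lie near the highest array intensities of 13521.7 to 15435.1, and whether a ceiling of the signal bears on them was not tested. A dimmer ITGB5 probe set had group means of 3113, 2789 and 3416 and was called only in 24 h minus 5 h with the block (0.28, adjusted p = 0.018).

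Among the alpha chains, ITGA5 and ITGA3 were dominated by array number. ITGA5, the alpha chain of the classical fibronectin receptor, had 1093, 1462 and 248 in control, 1728, 1572 and 210 at 5 h, and 1044, 831 and 140 at 24 h. The arrays numbered 3 were far lower in every group. Its change at 24 h was -0.54 ± 1.0 (limma adjusted p = 0.85), and the pairs gave -0.065, -0.80 and -0.76, which was called with the replicate block (0.026). A second ITGA5 probe set gave -0.25, with pairs of -0.023, -0.79 and 0.065, and was not called with the block (0.37, and 0.27 in 24 h minus 5 h). On the brighter probe set, the fit without the block gave 0.32 when 24 h replicate 3 was left out (limma adjusted p = 0.88). That refit keeps the low arrays numbered 3 in the other groups, so its sign cannot be read as a change with salt. ITGA3, a chain of laminin receptors, had 1177, 798 and 151 in control and 969, 683 and 183 at 24 h, and a change of -0.081 (95% interval -2.12 to 1.95). ITGAE, a lymphocyte integrin chain with 557 to 780 over the 9 arrays, and ITGA7, the alpha chain of a muscle laminin receptor, had changes at 24 h of 0.17 and -0.22 and were not called.

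Of further chains known from leukocyte integrins, ITGAL reached at most 40.8 on an array and ITGB2 37.8, and ITGAM and ITGA4 lay below the filter. ITGAD had 71.8 to 143 over the 9 arrays. ITGAL, ITGB2 and ITGAD were not called in the 3 comparisons, with or without the block.

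With the replicate number as a block, 7 members rose and 6 fell at 24 h against control, where 35.8% of all tested probe sets were called (18.3% upward and 17.5% downward). Besides the 4 genes above, the members called in this fit were VCAM1, ITGBL1, CDH3 and ITGB4 upward and ITGA5, ITGB6, ITGB7, LAMC1 and SDC3 downward. In 24 h minus 5 h the block gave 10 up and 6 down, where 43.8% of all tested probe sets were called (24.2% upward and 19.6% downward). The added genes there included ICAM1, LAMB2 and PCDH12 upward and CDH2 and ITGB3BP downward. At 13 and 16 of 39 tested members, the shares were near the background in both comparisons.

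VCAM1, a receptor that leukocyte integrins bind, had intensities of 153, 82.6 and 346 in control, 232, 68.1 and 255 at 5 h, and 532, 159 and 730 at 24 h. The groups overlapped, since replicate 2 was lowest in each of them, and the change of 1.19 ± 0.68 was not called (limma adjusted p = 0.36). Within numbers the differences were 1.70, 0.83 and 1.05, which gave an adjusted p of 0.0012 with the block. ITGBL1, a secreted protein resembling integrin beta chains, had a like pattern, with 100, 83.2 and 235 in control and 348, 166 and 544 at 24 h. Its change was 1.22 ± 0.51 (limma adjusted p = 0.19, and 0.00038 with the block), and it was higher in 3 of 3 pairs. ICAM1, another ligand of leukocyte integrins, had 112, 36.0 and 24.5 in control, 37.1, 37.8 and 17.6 at 5 h, and 109, 93.9 and 52.8 at 24 h. Its 24 h arrays lay above all 5 h arrays but overlapped control, with control replicate 1 the highest of the 9. The change from 5 h to 24 h was 1.10 ± 0.43 (limma adjusted p = 0.13, and 0.0034 with the block).

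Markers of other cell types were set beside these values. At 24 h against control, 8.61% of all tested probe sets were called without the block and 35.8% with it. Of 10 leukocyte markers, 7 were tested and 1 was called at 24 h, CD14, which rose by 1.43. The summed intensity of the list was 278 to 300 in control, 302 to 305 at 5 h and 497 to 533 at 24 h. Most of that rise was CD14 itself, with a mean of 95.6 in control and 286 at 24 h. PTPRC, which marks all leukocytes, had intensities of 0 to 36.8, and TYROBP 3.0 to 12.8. Of 10 endothelial markers 6 were tested. None was called at 24 h against control in the limma fit without the block, and 3 were called with it. Their summed intensity was 210 to 275 in control and 223 to 291 at 24 h, with TIE1 at 1.0 to 7.0. Of 6 annulus and tendon-type markers 5 were tested and 3 rose at 24 h, COL12A1 by 1.73, TNXB by 1.67 and THY1 by 0.74. The other tested ones, COL1A1 and COL3A1, changed by -0.32 and -0.058. Neither was called without the block, and COL1A1 was called with it (limma adjusted p = 0.0462). That list summed to 13717 to 20378 in control and 16496 to 19309 at 24 h. Of 7 skeletal muscle markers 6 were tested, and CKM rose by 1.99 and MYL1 fell by 1.26 at 24 h. The list summed to 1083 to 1329 in control, 1339 to 3663 at 5 h and 2228 to 3592 at 24 h. CKM had means of 641, 2249 and 2652 in control, 5 h and 24 h, and ACTA1 had 307, 343 and 198. Of 5 epithelial markers 2 were tested, and KRT5 rose from 5 h to 24 h by 0.56 (adjusted p = 0.039) and, with the block only, from control to 24 h by 0.50 (0.072 without it and 0.0043 with it). The sum of the epithelial markers was 451 to 485 in control and 625 to 756 at 24 h, with EPCAM at 0 to 5.7. KRT5 made up most of it, with a mean of 434 in control and 623 at 24 h. Among 10 nucleus pulposus markers 5 were tested, and BNIP3 fell by 1.64 at 24 h. HIF1A changed by 0.29, called only with the block (limma adjusted p = 0.044). SLC2A1, KRT15 and KRT18 changed by -0.044, -0.12 and -0.16 and were not called with or without the block. Of 6 neural and Schwann cell markers 4 were tested and 0 were called at 24 h without the block. With it, S100B changed by 0.27 (limma adjusted p = 0.0478) and SYP by -0.64 (0.0021). That list summed to 3067 to 4434 in control and 3712 to 4524 at 24 h, with S100B at 2460 to 4145 and SOX10 at 6.0 to 293. Of 10 cartilage-type markers 8 were tested and 0 were called at 24 h without the block. With the block, ACAN changed by 1.35 (limma adjusted p = 0.00041), COMP by 0.39 (0.033) and HAPLN1 by -0.46 (0.016). ACAN had means of 1261, 1053 and 2995 in control, 5 h and 24 h. The part of these cell types in the changes of the adhesion genes was not tested.

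Laminin chains gave no call without the block. LAMC1, the gamma chain of most laminins, had 4692, 3143 and 4399 in control, 3755, 3323 and 4360 at 5 h, and 3048, 2846 and 3340 at 24 h. Its change at 24 h was -0.39 ± 0.17 (limma adjusted p = 0.20, and 0.011 with the block), lower in 3 of 3 pairs. Of the other 4 LAMC1 probe sets tested, one also changed downward in value (-0.41, 0.0446 with the block) and the rest pointed the other way, at 0.30, 0.15 and 0.34, none of them called with or without the block. No direction is therefore given for LAMC1. LAMB1, a beta chain, had group means of 1326, 1291 and 1298 and a 95% interval for the change at 24 h of -0.38 to 0.31. LAMB2, the other broadly used beta chain, had 581, 645 and 680 at 5 h and 979, 695 and 1155 at 24 h. Its 24 h arrays lay above its 5 h arrays, and the difference was 0.53 ± 0.20 (limma adjusted p = 0.12, 0.014 with the block, and 0.043 without 24 h replicate 2). LAMA4 and LAMB3 were dim, with highest array values of 73.2 and 51.7, and were not called in any comparison.

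Among cadherins, CDH2 (N-cadherin) showed opposite signs at the 2 times. Its intensities were 1410, 1449 and 2056 in control, 1891, 1629 and 2498 at 5 h, and 1083, 1346 and 1732 at 24 h, with overlap between all groups. From 5 h to 24 h it changed by -0.53 ± 0.23 (limma adjusted p = 0.17), lower in 3 of 3 pairs, and with the block it fell (0.0025). Its change against control was not called at either time, with or without the block. CDH11, a cadherin of mesenchymal cells, had group means of 3318, 3230 and 3707 and was not called on that probe set. Its second probe set had 2140, 2060 and 2640 and was called at 24 h with the block only (0.30, adjusted p = 0.014). CDH3 (P-cadherin) was dim, at 43.5, 41.5 and 62.1 in control and 77.5, 53.7 and 94.4 at 24 h, a change of 0.48 ± 0.27 (limma adjusted p = 0.35, and 0.019 with the block). CDH5, which marks endothelium, stayed between 24.8 and 42.9 on the 9 arrays. CDH13, a cadherin anchored without a cytoplasmic tail, had 1442, 729 and 708 in control, so that 1 array set its control mean.

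Protocadherins were all dim, with PCDH12 at 24.3 to 46.2 and PCDH10 at 14.0 to 43.3 over the 9 arrays. PCDH12 was higher at 24 h than at 5 h by 0.43 ± 0.16 (limma adjusted p = 0.11, and 0.034 with the block), with no overlap of the groups. Its second probe set had a change of -0.013 in that comparison.

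The syndecans differed from each other in value. SDC3 had 155, 134 and 139 in control, 176, 122 and 154 at 5 h, and 110, 77.4 and 76.8 at 24 h. The 24 h arrays lay below all others, and the change from control was -0.62 ± 0.20 (limma adjusted p = 0.091, and 0.0040 with the block). From 5 h to 24 h SDC3 changed by -0.68 ± 0.20 (limma adjusted p = 0.0512, and 0.0019 with the block). There it was also called with the filter at the median, pseudocount 1, median centring, quantile normalization or no intensity trend. It was not called with no filter, pseudocount 64 or only the 6 arrays compared. SDC2 had group means of 662, 701 and 732 and a change of 0.12 ± 0.21 at 24 h. A second SDC2 probe set pointed the other way, with group means of 733, 676 and 511 and a change of -0.46 ± 0.27, called only with the block (0.018), so no direction is given for SDC2. CD44, the receptor for hyaluronan, had 3005, 2397 and 2679 in control and 2721, 2608 and 2657 at 24 h, a change of -0.011 (95% interval -0.25 to 0.23).

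**Figure D3:**
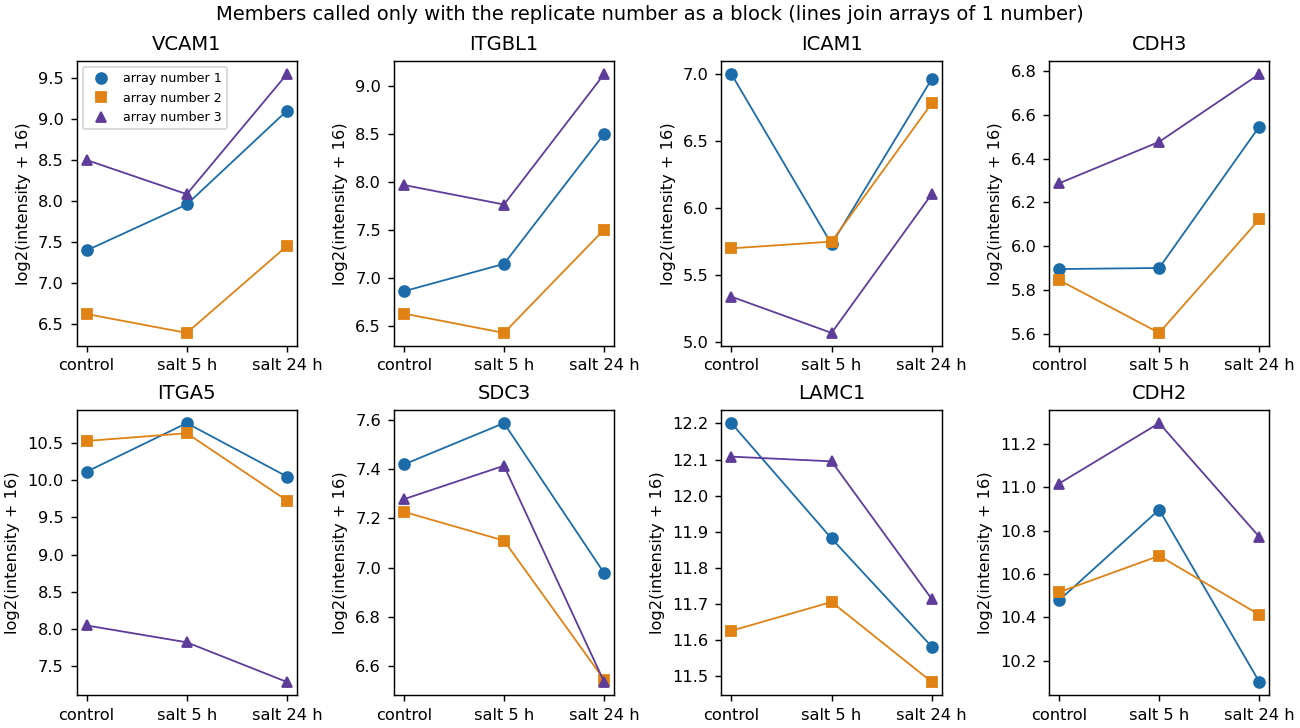
Values in log2(intensity + 16) of 8 members called in at least 1 comparison only when the array number entered the fit as a block, with lines joining arrays of the same number across control, salt 5 h and salt 24 h. For VCAM1 and ITGBL1 the 24 h point is the highest of each line and number 2 is the lowest line, and ITGA5 is lowest in number 3 in every group.

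Of the 47 members, 3 had all 24 h arrays above all control arrays (ITGA10, ITGAV and ITGB3) and 5 had them below (ITGA2B, ITGB1BP1, ITGB6, ITGB7 and SDC3). The shares over all tested probe sets were 13.9% and 13.5%. ITGA2B lay below the filter, with means of 9.3 in control and 3.9 at 24 h, and is not among the tested probe sets of these shares. In 24 h minus 5 h, 8 members lay above (CDH11, ICAM1, ITGA10, ITGAV, ITGB3, ITGB4, LAMB2 and PCDH12) and 4 below (ITGA7, ITGB1BP1, ITGB3BP and SDC3), against 18.1% and 14.3%. ITGB6, an epithelial chain, had 60.9, 59.3 and 86.2 in control and 53.4, 35.3 and 58.3 at 24 h. ITGB7, a lymphocyte chain, had 71.2, 103 and 88.1 in control and 57.6, 68.5 and 48.6 at 24 h. Their changes of -0.39 ± 0.22 and -0.47 ± 0.18 were called only with the block (0.035 and 0.016). ITGB4, a chain of hemidesmosomes, had 23.6, 18.6 and 11.3 in control and 44.0, 24.4 and 22.5 at 24 h, near the floor, with a change of 0.44 ± 0.21 (0.028 with the block). ITGB3BP, which despite its name also encodes a kinetochore protein, was lower at 24 h than at 5 h by a log2 change of -0.42 ± 0.18 (limma adjusted p = 0.16, and 0.031 with the block).

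The members whose values over the 9 arrays were most like those of ITGA10 were ITGB3 (Pearson r = 0.956), ITGAV (0.886) and ITGBL1 (0.858). These arrays share 3 groups and 3 numbers, so the correlations mix the 24 h difference with differences between array numbers.

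Probe sets of the same gene differed on the arrays numbered 3. The brightest LAMC1 probe set had 4399, 4360 and 3340 on those arrays and 2846 to 4692 on the other 6. Another LAMC1 probe set had 228, 217 and 196 on the arrays numbered 3 and 546 to 1006 on the other 6, a log2 difference of -1.77. The brightest ITGB3 probe set differed by 0.17 between the arrays numbered 3 and the others, and a dimmer one by -1.84. For ITGA5, 2 of 3 probe sets were lower on those arrays, by -2.59 and -2.92, and the third lay near the floor. Of the 56 member probe sets tested, 9 (16.1%) lay below all other arrays on the arrays numbered 3, against 18.3% of all tested probe sets, and 5 (8.93%) lay above, against 9.69%. By more than 1 log2 unit, 8 (14.3%) were lower on those arrays, against 8.14%, and 2 (3.57%) were higher, against 1.38%. Of the 39 probe sets used for the tested members, 2 (5.13%) were lower and 2 (5.13%) higher by that much. Between the 3-prime and 5-prime actin control probe sets, which report on how complete the RNA was, the log2 difference was 2.69, 2.78 and 3.31 on the arrays numbered 3 and 2.37 to 2.90 on the others. For the GAPD control probe sets it was -0.080, -0.0090 and 0.021 on the arrays numbered 3, within the -0.18 to 0.057 of the others. The part of RNA quality in these differences was not tested. Without the 3 arrays numbered 3, ITGA10 changed by 2.46 at 24 h (adjusted p = 0.0077), ITGB3 by 1.86 (0.0020), ITGB1BP1 by -0.70 (0.041) and ITGAV by 0.79, no longer called (0.11). In 24 h minus 5 h, ITGA5 at -0.81 (0.027) and ITGBL1 at 1.22 (0.044) were then called, which raised the count from 3 to 5.

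**Figure D4:**
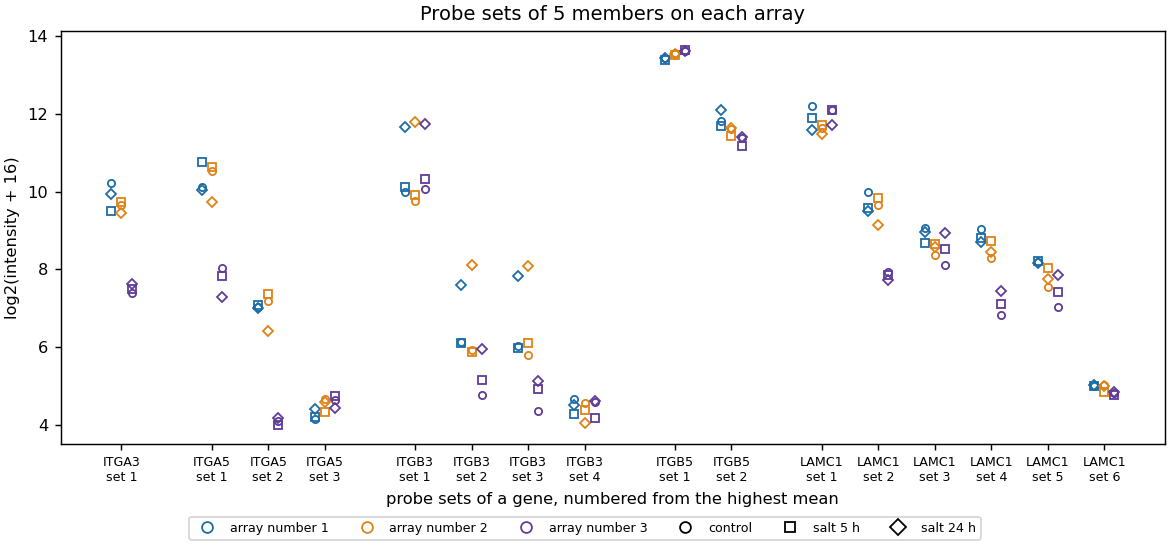
Values in log2(intensity + 16) of every probe set of ITGA3, ITGA5, ITGB3, ITGB5 and LAMC1, numbered from the highest mean, with array number as colour and group as symbol. Arrays numbered 3 lie far below the others in ITGA3 set 1, ITGA5 sets 1 and 2 and LAMC1 set 2, but not in ITGB3 set 1 or LAMC1 set 1. They also lie below all others in a dimmer set of ITGB3 and a dimmer set of LAMC1, with log2 differences of -1.84 and -1.54.

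Genes that work with the members were read from 5 lists. Without the block, 0.483% of all tested probe sets were called at 5 h, 8.61% at 24 h and 14.2% in 24 h minus 5 h. Of 25 measured focal adhesion genes, 23 were tested. Of these, 0 were called at 5 h and 1 fell at 24 h, PARVB, whose product links integrin-bound kinase to actin. It changed by -1.04 ± 0.25 (limma adjusted p = 0.040), from a mean of 306 to 140. From 5 h to 24 h, PARVB and the actin crosslinker ACTN4 fell, with changes of -1.35 and -0.41. FBLIM1, a filamin-binding adaptor, rose by 0.90, and the scaffold NEDD9 rose by 1.06. NEDD9 had means of 645, 300.0 and 635 in control, 5 h and 24 h, and its change at 5 h of -1.07 was called only with the block (0.032). The list's median change at 24 h was -0.025.

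Of 18 measured integrin ligands other than laminins, 17 were tested. None was called at 5 h or 24 h against control, against 0.483% and 8.61% of all tested probe sets. The median changes of the 18 were -0.21 and -0.052. From 5 h to 24 h, CCN2, a matricellular growth factor-binding protein, rose by 0.70 and the matricellular POSTN by 1.5, the latter from a mean of 12.8 to 67.9. CCN2 had means of 9781, 5832 and 9324 in control, 5 h and 24 h, with a change of -0.74 at 5 h that was called only with the block (0.013) and one of -0.047 at 24 h that was not called. FBN1, the microfibril protein fibrillin, had means of 4537, 1715 and 3206, and its change of -1.33 ± 0.30 at 5 h was called only with the block (limma adjusted p = 0.13 without it and 0.00081 with it). Of 13 measured basement membrane partners of laminins, 12 were tested. None was called in any of the 3 comparisons, against 0.483%, 8.61% and 14.2% of all tested probe sets. With the block only SPARC was called, at 24 h (0.28, adjusted p = 0.019) and in 24 h minus 5 h (0.55, adjusted p = 0.00048).

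Of 10 measured partners of cadherins, 8 were tested. CTNNA1, the catenin that links cadherins to actin, rose at 24 h by 0.63 ± 0.10 (limma adjusted p = 0.011), from a mean of 2174 to 3382. PKP4, a plakophilin, had means of 183, 309 and 188 in control, 5 h and 24 h. Its change at 5 h of 0.71 was called only with the block (limma adjusted p = 0.0061). From 5 h to 24 h PKP4 fell by 0.67 on the log2 scale (0.037 without the block). Its change of 0.036 at 24 h against control was not called. Of 27 other adhesion-related genes, mainly receptors and proteoglycans, 26 were tested, and 2 rose and 1 fell at 24 h. Over all tested probe sets 4.28% were called upward and 4.32% downward in that comparison. The tight junction receptor F11R changed by 0.97 ± 0.25 (adjusted p = 0.0497) and the tetraspanin CD81 by 0.46 ± 0.099 (0.028), while the glypican GPC4 changed by -1.03 ± 0.18 (0.014), from 602 to 288. The block raised the counts at 24 h against control to 3 up and 4 down of 23 tested for focal adhesion. For integrin ligands they were 1 and 2 of 17, and for cadherin partners 2 and 0 of 8. For the other adhesion-related genes they were 8 and 3 of 26. Over all tested probe sets, 18.3% were called up and 17.5% down with the block.

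**Figure D5:**
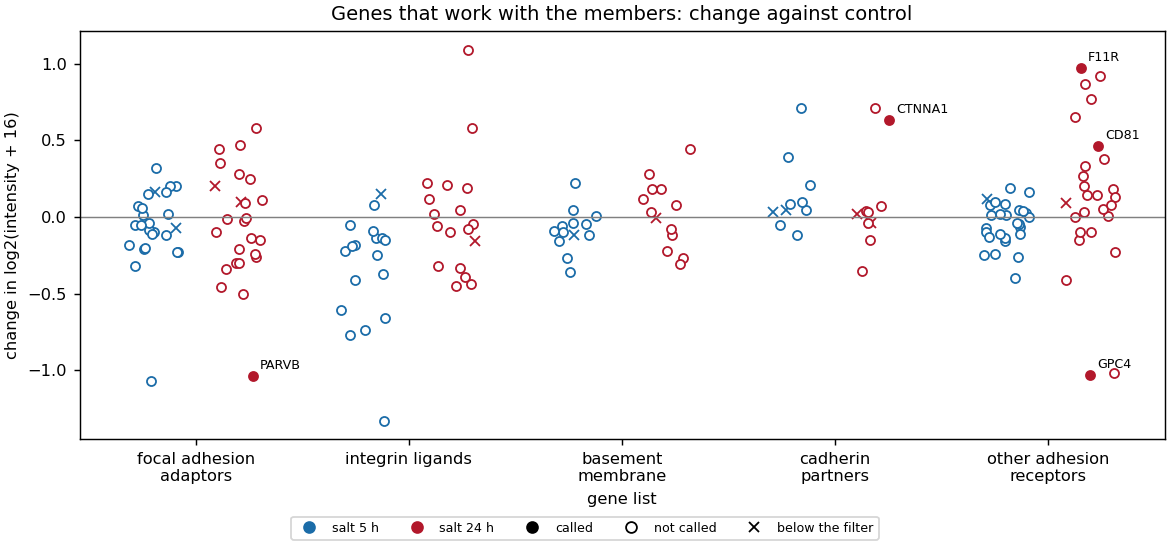
Change in log2(intensity + 16) against control at 5 h (blue) and 24 h (red) of genes in 5 lists that work with the members, 1 point per gene with horizontal jitter. Filled points were called in the fit without a block. No gene is filled at 5 h, and at 24 h the filled genes are PARVB at -1.04, CTNNA1 at 0.63, F11R at 0.97, CD81 at 0.46 and GPC4 at -1.03.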

How the data were processed

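The deposited table holds linear probe-set intensities; the submitters' processing notes name PLIER and Affymetrix Expression Console. Versions, settings and normalization between arrays: not given in the sources used here. Of 24128 probe sets, 112 are array controls. Symbols came from the platform annotation; 13292 probe sets carry 1 gene, and all 47 member symbols matched a current bovine gene table (ARS-UCD2.0) by gene number. Intensities were transformed as log2(value + 16) with no further scaling. Probe sets below the 25th percentile of the mean were left out, which left 18012, and limma 3.58.1 (R 4.3.3) estimated a mean per group over the 9 arrays, with eBayes variances allowed to follow intensity. P-values were adjusted over all 18012 within a comparison, and the fit was tested on simulated data. The number of arrays limits the precision. Same-numbered arrays deviated together in all 9 pairs, which is where the pairing comes from; the labels do not state it. The members and lists were chosen with earlier results of these data known. Members were named when called with or without the block, or when among the 2 with the highest mean of their role, and list genes when called against control; further members and list genes were named after their values were seen. Alternatives changed the filter, pseudocount, scaling, variance model, arrays fitted, block and probe set. The part of the naming rule on promoter motifs was not run.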

Additional observations from a re-analysis of the deposited data

Results flagged for a closer look

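The change against the shared control differed between 24 h and 5 h for 3 members, by the test of 24 h minus 5 h itself. ITGA10 differed by 2.67 on the log2 scale (limma adjusted p = 0.0033) and ITGB3 by 1.61 (0.0015), both higher at 24 h in 3 of 3 pairs. ITGB1BP1 differed by -0.60 (0.014), lower at 24 h in 3 of 3 pairs.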

How the results depend on the processing

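The number of members called was 0 at 5 h, 4 at 24 h and 3 for 24 h minus 5 h. It stayed 0 at 5 h under every alternative run. With the replicate block it was 13 at 24 h and 16 for 24 h minus 5 h, with all earlier calls kept and none added at 5 h; the block takes out the difference between array numbers. With the lowest probe set of each gene it was 1 and 1, both ITGB1BP1, which has 1 probe set. For 24 h minus 5 h it was 5 with quantile normalization, which added ITGAV and SDC3, and 5 without the arrays numbered 3, an alternative chosen after seeing the data. Leaving out 1 array gave 2 to 4 at 24 h and 2 to 5 for 24 h minus 5 h. ITGA10 and ITGB3 were called at 24 h in every refit with 1 array left out and in 9 of 9 other settings of the fit, but ITGA10 was not called with its lowest probe set and that of ITGB3 lay below the filter. ITGAV was called in 4 of those 9 settings and in 2 of 9 refits. The sign of ITGA5 turned without 24 h replicate 3, to 0.32 at 24 h and 0.15 for 24 h minus 5 h (the range over refits with 1 array left out was -1.3 to 0.32 and -1.68 to 0.15). For ITGA5 the array numbered 3 was the lowest in every group, so leaving out 1 of them unbalances the group means. Within numbers, ITGA5 was lower at 24 h in 3 of 3 pairs in both comparisons. With lower probe sets the sign turned for PCDH12, to -0.013, for SDC2, to -0.46 at 24 h, and for LAMC1, to 0.34 at 24 h and 0.033 for 24 h minus 5 h with the dimmest one tested; the cause was not tested. Dim probe sets limit what could be seen: 8 members lay below the filter.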
